A study of Arabidopsis thaliana with 6 samples.

Results

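The general phenylpropanoid pathway turns the amino acid phenylalanine into activated cinnamic acids, from which plants make lignin, flavonoids, sinapate esters and many defence compounds. Phenylalanine ammonia-lyase (PAL) removes the amino group, cinnamate 4-hydroxylase (C4H) adds a hydroxyl, and 4-coumarate:CoA ligase (4CL) joins the acid to coenzyme A. The acyltransferase HCT then opens the route to lignin, and the methyltransferase OMT1 methylates lignin precursors further along. In seedlings lignin is laid down mainly in the water-conducting xylem and in the Casparian strip of the root endodermis. The genes described here are PAL1, PAL2, PAL4, C4H, 4CL1, 4CL2, HCT and OMT1, taken by exact symbol from the count tables. Each matched 1 row, making 8 of 32921 named rows, and all 8 passed the filter on low counts.

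The traffic noise group held 3 libraries from whole wild-type Arabidopsis thaliana seedlings exposed for 48 h to recorded urban traffic noise averaging 75 dB. The control group held 3 libraries from whole wild-type seedlings kept for 48 h in the same sound-proof facility with white noise averaging 10 dB. All were on half-strength MS agar in sealed plates wrapped in foil against light. The sources used here name neither accession nor age, and they speak of both exposed seeds and whole seedlings. Sound type and sound level differed together, so they cannot be told apart. The labels do not tell whether replicates were separate plates, so a p-value here reflects just the spread among the 6 libraries, which may be technical.

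Libraries were made with a QuantSeq kit, which counts the 3′ ends of transcripts. Totals were 19782106 to 20605708 counts in traffic noise libraries and 17540009 to 20780363 in control libraries, and a floor of 3 counts was 0.144 to 0.171 CPM (counts per 1000000 counts of the library). Control replicate 3 stood apart, with counts on 16128 rows against 20026 to 20287 in the others. Control replicate 1 drew 16.1% of its counts from organelle loci against at most 11.7% in the others. As a check of the tissue label, 9 seed storage genes summed to 1.97 to 3.60 CPM in traffic noise and 3.86 to 10.9 CPM in control. That sum rests on few counts, such as 135 of CRU3 in control replicate 1. Just 1 of the 9, OLEO1, was tested (log2 fold change 0.96 ± 1.87). The 5 root genes summed to 10198 to 11587 CPM in traffic noise and 11145 to 11384 CPM in control, and of 4 tested 2 had positive and 2 negative fold changes. Among them PYK10 stood at 7861 to 8644 CPM in traffic noise and 8759 to 9624 CPM in control. Its row overlaps AT3G09250, with 531270 counts against 1020823. Photosynthetic markers summed to 3621 to 3918 CPM in traffic noise and 2721 to 5508 CPM in control.

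Promoters of phenylpropanoid genes are known for AC elements, short sequences bound by MYB transcription factors. Windows from 250 bases before to 50 bases after each annotated gene start were read from the RefSeq TAIR10.1 genome and searched on both strands for ACCTACC (AC-I), ACCAACC (AC-II), ACCTAAC (AC-III) and CACGTG (the G-box, a site for bZIP and bHLH factors). The matches are shown because AC elements are the regulatory sequence for which phenylpropanoid genes are known, with the G-box searched beside them. Binding at these matches was not tested. Each is given with 8 bases on either side, on the gene's strand and with the match in capitals. No match overlapped another.
PAL1, AC-II at position 39, chr2:15560703-15560725, minus strand: gtagtctcACCAACCgcgaaatg
PAL2, AC-II at position 4, chr3:19747097-19747119, minus strand: aaagtctcACCAACCgcaaaacg
4CL2, AC-II at position -140, chr3:7457530-7457552, minus strand: agtagctcACCAACCcctacatg
4CL2, AC-II at position -31, chr3:7457421-7457443, minus strand: aacatttcACCAACCacaaattc
HCT, AC-II at position -90, chr5:19838311-19838333, minus strand: acgggtttACCAACCccggatag
HCT, AC-I read on the opposite strand at position 12, chr5:19838210-19838232, minus strand: cgtggggcGGTAGGTgaaggatt
PAL4, G-box at position -117, chr3:3203863-3203884, plus strand: atggaagaCACGTGgtgactat
Positions count from the gene start, with 1 as its first base. An AC element lay in 4 of the 8 windows, against 7.29% of 27443 promoters of nuclear protein-coding genes, and a G-box in 1 of the 8, against 7.68%. No match was found in the windows of C4H, 4CL1 and OMT1.

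Traffic noise was set against control to ask whether these transcripts differ in level after 48 h. None of the 8 passed. In edgeR's quasi-likelihood test, adjusted by Benjamini-Hochberg over 19112 loci, 0 members passed in either direction with a threshold of 0.05, and 0% of all tested loci were called higher and 0.0105% lower. At an unadjusted p under 0.05 the members counted 0, against 7.46% of all tested loci. DESeq2, which gave 4CL2 no adjusted p, and limma-voom also called 0 members, where they called 4.90% of the 4365 loci to which DESeq2 gave an adjusted p and 0.0628% of all loci. The groups did not overlap for 1 member, C4H, against 16.4% of all tested loci with such a gap, higher in traffic noise for 8.99% and lower for 7.39%. Log2 fold changes were negative for 5 members and positive for 3, with a median of -0.16, against a median of 0.05 and 47.5% negative over all tested loci.

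**Figure D1:**
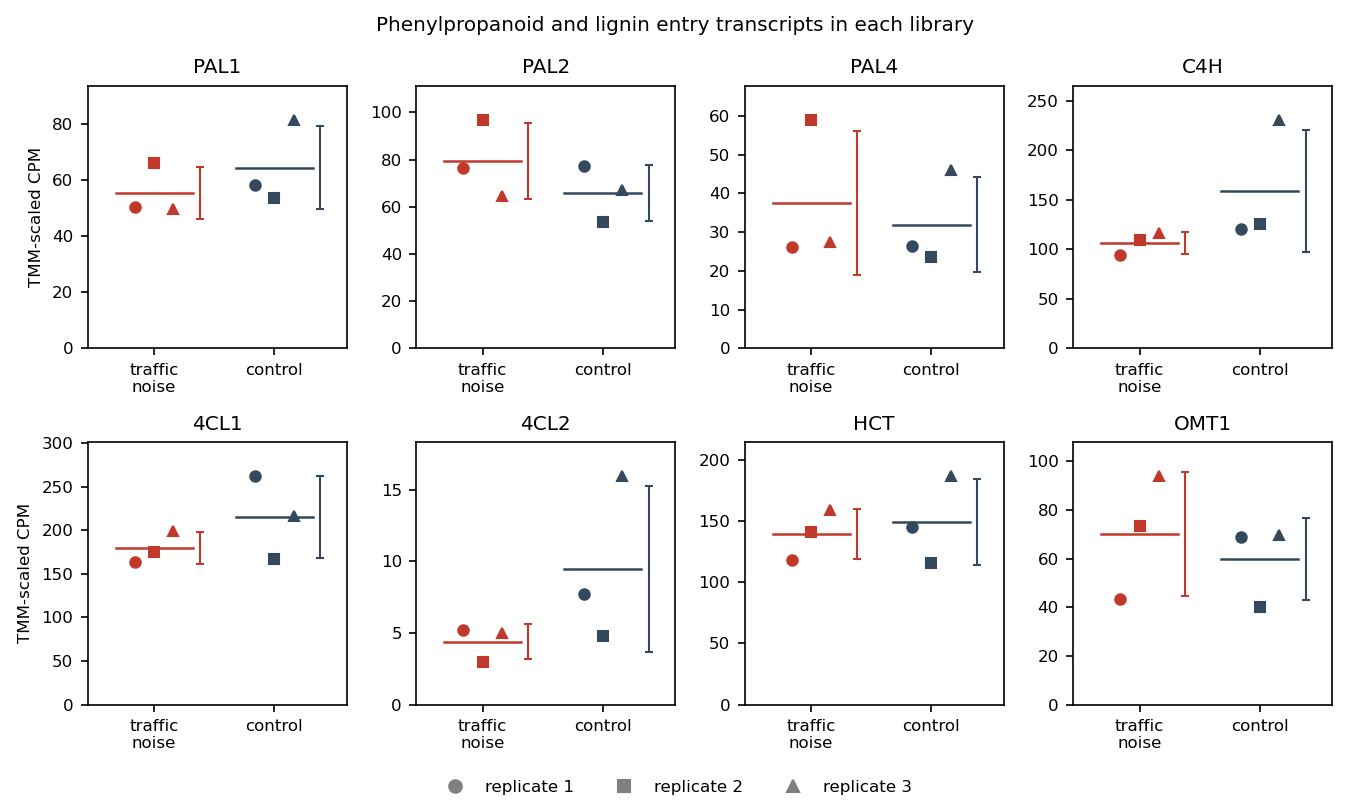
TMM-scaled CPM of each transcript in the 3 traffic noise and 3 control libraries; symbols mark replicates, horizontal lines the means and side bars 1 SD. C4H is the 1 gene whose groups do not overlap, and control replicate 3 is the highest of the 6 libraries for PAL1, C4H, 4CL2 and HCT.

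PAL1, PAL2 and PAL4 encode ammonia-lyases for the entry step, and their fold changes lay on both sides of 0. PAL1 (AT2G37040, chr2:15557367-15560755, minus strand) stood at 50.5, 66.2 and 49.6 CPM in traffic noise replicates 1 to 3 and at 58.1, 53.7 and 81.3 CPM in control replicates 1 to 3. The groups overlapped, and the highest library was control replicate 3. Its log2 fold change was -0.21 ± 0.26 (fitted value ± SE, 95% interval -0.80 to 0.37, edgeR adjusted p = 0.958). Without control replicate 3 that value was -0.01.

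PAL2 (AT3G53260, chr3:19744018-19747114, minus strand), with PAL1 the form most tied to lignin and flavonoids, stood at 76.6, 96.7 and 64.7 CPM in traffic noise and at 77.1, 53.6 and 66.9 CPM in control. Its groups overlapped, with traffic noise replicate 2 highest and control replicate 2 lowest. The log2 fold change was 0.27 ± 0.26 (95% interval -0.30 to 0.84, edgeR adjusted p = 0.941).

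PAL4 (AT3G10340, chr3:3203988-3208135, plus strand) stood at 26.1, 58.9 and 27.5 CPM in traffic noise and at 26.3, 23.5 and 45.9 CPM in control. In each group 1 library was high, traffic noise replicate 2 and control replicate 3, and the other 4 lay between 23.5 and 27.5 CPM. The log2 fold change was 0.23 ± 0.40 (95% interval -0.65 to 1.12, edgeR adjusted p = 0.973), and it was -0.23 without traffic noise replicate 2 and 0.59 without control replicate 3.

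Because 3′ end counts do not scale with transcript length, shares within the PAL family were taken from the counts directly. PAL1 made up 33.0%, 29.9% and 35.0% of the PAL1, PAL2 and PAL4 counts in traffic noise and 36.0%, 41.1% and 41.9% in control. These shares did not overlap, with means of 32.6% ± 2.58 and 39.6% ± 3.20 (SD, n = 3 each), and no test was made of them, since they were chosen after the values were seen. The nearest libraries were close, at 35.0% in traffic noise replicate 3 (95% Wilson interval 33.3% to 36.7%) and 36.0% in control replicate 1 (34.4% to 37.6%). These intervals cover counting error only. PAL2 made up 46.4% ± 3.26 in traffic noise and 41.1% ± 6.63 in control, and PAL4 17.1% to 26.5% in traffic noise and 16.3% to 23.6% in control, and for both the groups overlapped.

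How reads matching several genes were counted is not given in the sources used here. In the last 300 bases of the annotated transcripts the longest run shared by PAL1 and PAL2 was 14 bases, by PAL1 and PAL4 9 bases, by PAL2 and PAL4 10 bases, and by 4CL1 and 4CL2 15 bases. Over whole transcripts PAL1 and PAL2 shared a run of 80 bases.

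**Figure D2:**
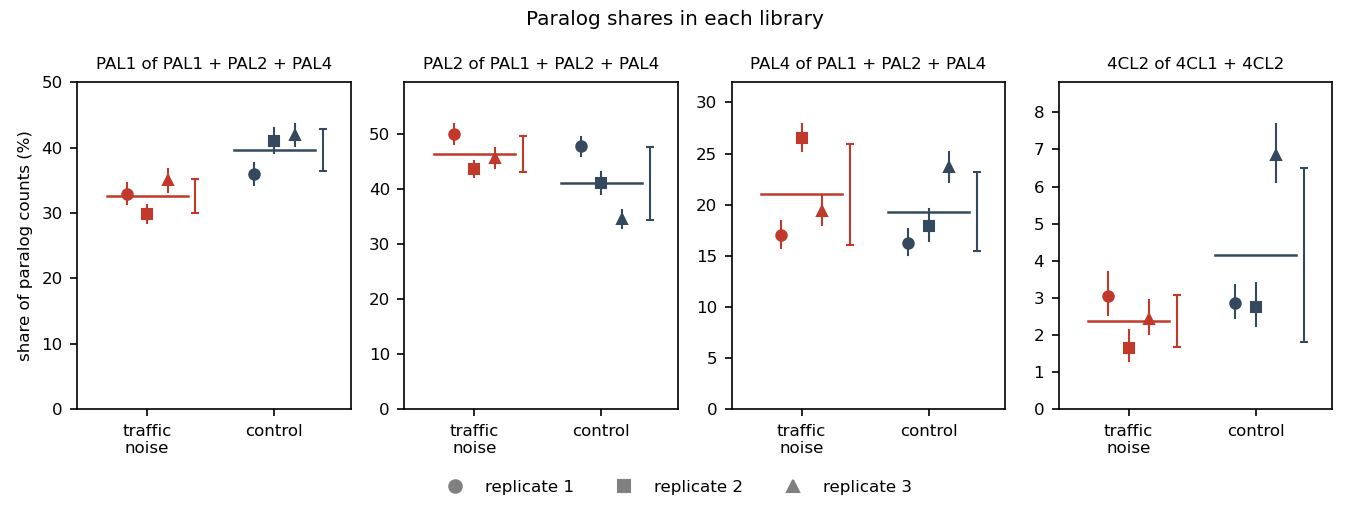
Share (%) of PAL counts taken by PAL1, PAL2 and PAL4, and of 4CL1 and 4CL2 counts taken by 4CL2, in each traffic noise and control library. Vertical lines through points are 95% Wilson intervals, horizontal lines means and side bars 1 SD; the PAL1 shares are 29.9% to 35.0% in traffic noise and 36.0% to 41.9% in control.

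C4H (AT2G30490, chr2:12993625-12996012, minus strand) encodes the cytochrome P450 that hydroxylates cinnamate and is the sole gene of its step in Arabidopsis. It stood at 94.1, 109.6 and 116.2 CPM in traffic noise and at 120.8, 125.3 and 230.4 CPM in control. All traffic noise libraries lay below all control libraries, by a narrow margin apart from control replicate 3. The means were 107 ± 11.3 CPM in traffic noise and 159 ± 62.0 CPM in control (SD, n = 3 each). The log2 fold change was -0.58 ± 0.28 (95% interval -1.20 to 0.05, edgeR adjusted p = 0.719), the smallest p among the members at an unadjusted 0.0663. Without control replicate 3 it was -0.21, and without control replicate 1 or 2 it was -0.74 or -0.72. In the latter fits, which keep control replicate 3, its unadjusted edgeR p was under 0.05 and its edgeR adjusted p was 0.784 and 0.341. Without control replicate 3 or any 1 traffic noise library, 0 members had such an unadjusted p.

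The 4CL ligases form the CoA esters, 4CL1 as the main form for lignin. 4CL1 (AT1G51680, chr1:19158746-19161737, minus strand) stood at 164, 175 and 199 CPM in traffic noise and at 262, 167 and 216 CPM in control. Control replicate 1 was highest, while control replicate 2 lay among the traffic noise libraries. Its log2 fold change was -0.26 ± 0.23 (95% interval -0.77 to 0.25, edgeR adjusted p = 0.933), and it was -0.10 without control replicate 1. Its last bases overlap a locus on the opposite strand, AT1G51670, by 24 bases; that row held 256 counts over the 6 libraries against 23100 for 4CL1.

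4CL2 (AT3G21240, chr3:7454269-7457404, minus strand), the member with AC-II at 2 positions, had the fewest counts, 60 to 105 in traffic noise and 87 to 276 in control. It stood at 5.18, 2.96 and 4.99 CPM in traffic noise and at 7.71, 4.76 and 15.9 CPM in control. Control replicate 3 stood far above the rest, and control replicate 2 lay within the traffic noise values. The log2 fold change was -1.11 ± 0.68 (95% interval -2.61 to 0.38, edgeR adjusted p = 0.822), and without control replicate 3 it was -0.51. Of the 4CL1 and 4CL2 counts, 4CL2 took 3.06%, 1.66% and 2.44% in traffic noise and 2.86%, 2.76% and 6.86% in control, and control replicate 3 (95% Wilson interval 6.12% to 7.68%) stood above the other 5 libraries.

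HCT (AT5G48930, chr5:19836299-19838235, minus strand) encodes the transferase that moves the coumaroyl group to shikimate. It stood at 118, 141 and 159 CPM in traffic noise and at 145, 116 and 187 CPM in control. The groups overlapped, with control replicate 3 above and control replicate 2 below every traffic noise library. Its log2 fold change was -0.10 ± 0.24 (95% interval -0.64 to 0.44, edgeR adjusted p = 0.982). The sign turned without control replicate 3, at 0.09.

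OMT1 (AT5G54160, chr5:21981902-21984399, plus strand) stood at 43.3, 73.4 and 93.8 CPM in traffic noise and at 69.0, 40.2 and 69.8 CPM in control. The groups overlapped, and each had 1 low library, traffic noise replicate 1 and control replicate 2. The log2 fold change was 0.23 ± 0.33 (95% interval -0.50 to 0.97, edgeR adjusted p = 0.970), and -0.03 without traffic noise replicate 3.

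**Figure D3:**
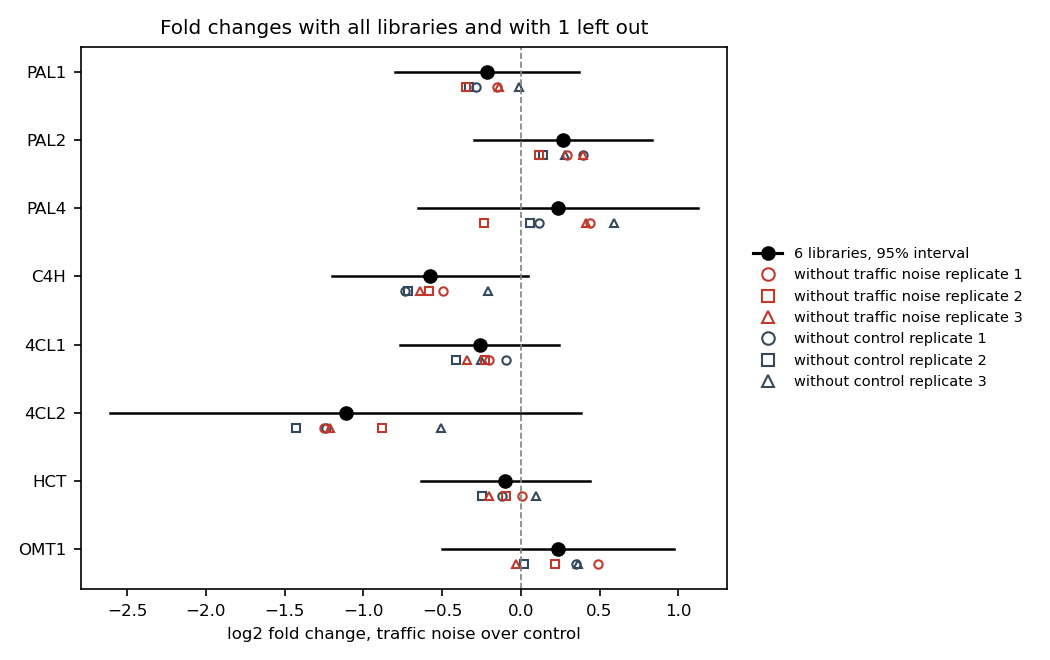
Log2 fold change of traffic noise over control for each gene, as the fitted value with all 6 libraries (black, 95% interval) and with 1 library left out (open symbols). Every interval includes 0, and leaving out control replicate 3 moves C4H to -0.21 and 4CL2 to -0.51.

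Summed over the 8 genes, the level was 578, 724 and 715 CPM in traffic noise and 766, 585 and 913 CPM in control. The means were 672 ± 81.8 CPM in traffic noise and 755 ± 165 CPM in control (SD, n = 3 each), a difference within the spread of the control libraries. The log2 ratio of the means was -0.17, and -0.0050 without control replicate 3. Fold changes were positive for 4 members and negative for 4 in the fit without that library, with a median of 0.04. Single genes did not share 1 pattern across libraries. Control replicate 3 was the highest library for PAL1, C4H, 4CL2 and HCT, traffic noise replicate 2 for PAL2 and PAL4, control replicate 1 for 4CL1 and traffic noise replicate 3 for OMT1. Control replicate 2 was the lowest for PAL2, PAL4, HCT and OMT1. The ratio of highest to lowest library ran from 1.59 for 4CL1 to 5.38 for 4CL2.

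The mean centred log2 CPM profile of the members was compared with that of 12335 nuclear loci over the 6 libraries. Among the members HCT lay nearest that mean, with a root mean square difference of 0.0907 on the log2 scale, and 4CL2 farthest, with 0.583. The 5 nearest other loci were BZIP53 (0.0217), AT5G65260 (0.0554), AT3G50590 (0.0675), PAP26 (0.0710) and AT1G36730 (0.0811). BZIP53, a bZIP transcription factor gene, stood at 216, 268 and 256 CPM in traffic noise and at 273, 217 and 370 CPM in control, with control replicate 3 highest as in the mean of the members. With so many loci and 6 libraries such nearness is a description only.

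Other genes of the pathway were taken from 8 lists with 64 genes, of which 61 matched a single row and 50 were tested. By edgeR 0 passed in either direction. With no adjustment, 8 genes had p under 0.05 on the higher side and 0 on the lower, against 3.48% and 3.98% of all tested loci. These 8 were the 4 Kelch F-box genes, ATR2, CSE, ESB1 and MYB7. The lists were chosen with earlier results of these data known, so the 8 and 0 are a description and not a test. Strand use in counting is unknown, so values of genes that overlap another locus are uncertain. Of the 8, ESB1, KMD3 and KFB50 overlap an opposite-strand locus whose row held near-equal counts. The other PAL and 4CL genes varied widely between libraries. PAL3 stood at 3.11, 4.44 and 2.45 CPM in traffic noise and at 0.491, 2.46 and 11.9 CPM in control. 4CL5 stood at 3.21, 0 and 0.832 CPM in traffic noise and at 0.835, 1.59 and 0 CPM in control, and its row overlaps AT3G21220, with 2836 counts against 128. 4CL3, which was not tested, stood at 1.86 CPM in traffic noise replicate 3 and 9.92 CPM in control replicate 3 and was at 0 in the other 4 libraries. CCR1, CCR2 and FAH1, which act in the monolignol branch, share their symbols with other rows and are not reported.

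**Figure D4:**
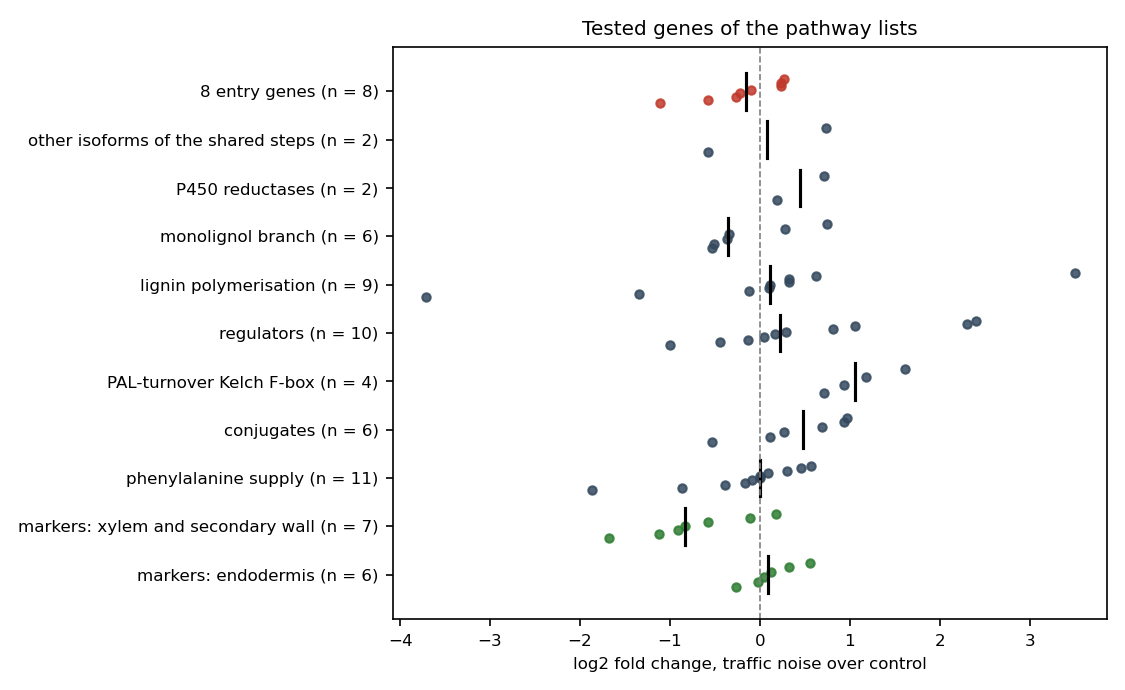
Log2 fold change of traffic noise over control for each tested gene of the 8 entry genes, the pathway lists and 2 marker lists (points), with the list's median (black bar). No gene shown passed edgeR; the 4 Kelch F-box genes lie above 0 and 6 of the 7 xylem markers below it.

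In the monolignol branch, which reduces the activated acids to lignin building blocks, 2 of 6 tested genes had positive and 4 negative fold changes, with a median of -0.36. CYP98A3, the P450 that acts on the product of HCT, averaged 46.9 ± 7.17 CPM in traffic noise and 67.8 ± 13.9 CPM in control (log2 fold change -0.53 ± 0.26, edgeR adjusted p = 0.721). Its row overlaps AT2G40880, which held 2686 counts against 6643. The alcohol dehydrogenases CAD4 and CAD9 had log2 fold changes of -0.51 ± 0.29 and -0.37 ± 0.22. CSE, an esterase that releases caffeate from caffeoyl shikimate, averaged 82.8 ± 16.4 CPM in traffic noise and 49.4 ± 17.2 CPM in control (log2 fold change 0.75 ± 0.31, edgeR adjusted p = 0.634). Its lowest library was control replicate 3, at 29.5 CPM against 58.9 and 59.8 CPM in control replicates 1 and 2. In edgeR fits without control replicate 3 or traffic noise replicate 2, 0 genes of this branch had an unadjusted p under 0.05. There were 3 without control replicate 2, and 1 without any other library. Of the reductases that pass electrons to C4H and the other P450s, ATR2 averaged 45.1 ± 9.69 CPM in traffic noise and 27.5 ± 3.56 CPM in control (log2 fold change 0.71 ± 0.29, edgeR adjusted p = 0.620), and ATR1, which overlaps AT4G24510 with 17766 counts against 13716, had a log2 fold change of 0.19 ± 0.23. Without control replicate 1 or traffic noise replicate 1 or 3, 0 reductases had an unadjusted edgeR p under 0.05. Without any other library 1 had.

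The Kelch F-box proteins KFB01, KFB20, KFB50 and KMD3 (also known as KFB39) bind PAL enzymes and send them for degradation, so they bear on the same enzymes after translation. For all 4 the traffic noise libraries lay above every control library, as they did for 8.99% of all tested loci. Each had an unadjusted edgeR p under 0.05, against 3.48% of all tested loci on the higher side, yet 0 passed. In the fit without control replicate 1, 3 of the 4 had such a p. KFB20 (AT1G80440) stood at 159, 207 and 228 CPM in traffic noise and at 71.6, 91.4 and 30.3 CPM in control. Its log2 fold change was 1.62 ± 0.36 (edgeR adjusted p = 0.465, DESeq2 adjusted p = 0.00189). KFB01 averaged 180 ± 17.4 CPM in traffic noise and 94.2 ± 48.1 CPM in control (log2 fold change 0.93 ± 0.32, edgeR adjusted p = 0.527, DESeq2 adjusted p = 0.0869). For KMD3 it was 1.18 ± 0.26 (edgeR adjusted p = 0.465, DESeq2 adjusted p = 0.00463) and for KFB50 0.72 ± 0.19 (edgeR adjusted p = 0.486, DESeq2 adjusted p = 0.0156). Both overlap a locus on the opposite strand with near-equal counts, 20086 for KMD3 and 21335 for AT2G44140, and 38975 for KFB50 and 37087 for AT3G09275, so their reads cannot be assigned with certainty.

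**Figure D5:**
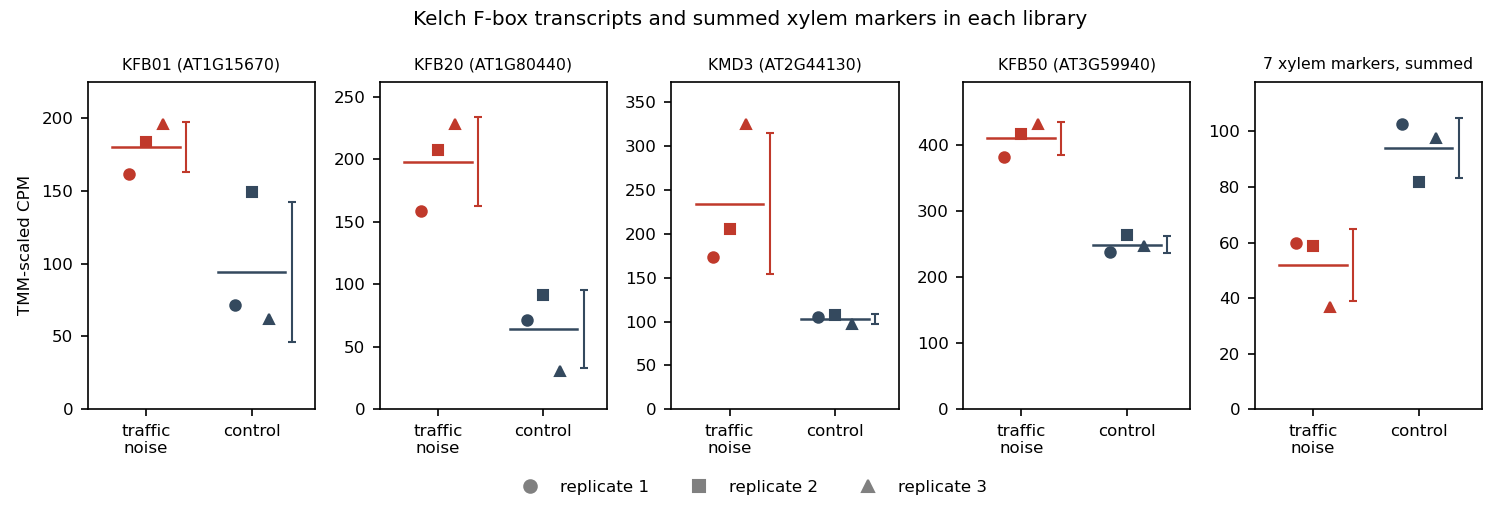
TMM-scaled CPM of the 4 Kelch F-box transcripts and the sum of 7 xylem markers in each traffic noise and control library; symbols mark replicates, lines means and side bars 1 SD. KFB20 is 159 to 228 CPM in traffic noise and 30.3 to 91.4 CPM in control, and the xylem sum is 36.8 to 59.8 CPM in traffic noise and 81.7 to 102.5 CPM in control.

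Among 10 tested regulators 7 lay above 0, and the median log2 fold change was 0.23. With 1 library left out that median ran from 0.09 without control replicate 3 to 0.76 without control replicate 1, and was 0.65 without control replicate 2 and 0.47 without traffic noise replicate 2. Without control replicate 1 or 3, or traffic noise replicate 2 or 3, 0 regulators had an unadjusted p under 0.05. MYB7 and MYB4, repressors of phenylpropanoid genes, averaged 35.0 ± 7.31 and 29.4 ± 8.19 CPM in traffic noise and 16.8 ± 9.34 and 16.7 ± 9.23 CPM in control. Their log2 fold changes were 1.05 ± 0.47 and 0.81 ± 0.48 (edgeR adjusted p = 0.665 and 0.807), with control replicate 3 lowest for both. VND6 and MYB46, switches of xylem cell walls, stood at 0.641 to 3.30 and 0.888 to 1.03 CPM in traffic noise and at 0 to 0.711 and 0 to 0.393 CPM in control. These values rest on 0 to 67 and 0 to 21 counts per library. The log2 fold changes were 2.40 ± 1.99 and 2.31 ± 2.14 (edgeR adjusted p = 0.919 and 0.940). VND6 overlaps AT5G62390, with 31105 counts against 148.

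Genes of lignin polymerisation had 6 positive and 3 negative fold changes, with a median of 0.12; without control replicate 3 these were 4 and 5, with a median of -0.12, and without traffic noise replicate 2 they were 3 and 6, with a median of -0.07. Leaving out any other library gave a median of 0.27 to 0.40. ESB1, a dirigent protein of the Casparian strip, averaged 480 ± 52.7 CPM in traffic noise and 311 ± 28.2 CPM in control (log2 fold change 0.63 ± 0.20, edgeR adjusted p = 0.494, DESeq2 adjusted p = 0.0482), but an opposite-strand locus, AT2G28671, held 46763 counts against its 46728. The peroxidase PRX72 had a log2 fold change of 0.33 ± 0.20, the laccase LAC11 one of -1.34 ± 0.87, and PRX25 stood at 4.34 to 5.04 CPM in traffic noise and at 0 to 0.737 CPM in control. Of 6 conjugation genes 5 were positive (median 0.48), or 4 without control replicate 3 or traffic noise replicate 2. UGT72E1, a glucosyltransferase of monolignols, was at 0.69 ± 0.39, UGT72E3 at 0.97 ± 0.71, UGT72E2 at -0.53 ± 0.36 and REF1 at 0.93 ± 0.69 (log2 fold changes). REF1 was lowest in control replicate 3, at 2.31 CPM against 15.8 and 32.4 CPM in control replicates 1 and 2. The 11 genes that supply phenylalanine split into 6 positive and 5 negative, or 3 and 8 without control replicate 3, and CM3, ADT2, ADT3 and DHS1 had log2 fold changes of -1.86 ± 1.01, -0.87 ± 0.54, 0.46 ± 0.33 and -0.39 ± 0.38. REF1, CM3 and LAC11 also overlap other loci, which held 5222, 465 and 268 counts against 2916, 532 and 701.

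Markers of lignifying cells were set beside these values. The 7 xylem and secondary wall markers summed to 59.8, 58.8 and 36.8 CPM in traffic noise and to 102.5, 81.7 and 97.6 CPM in control, without overlap, and none of the 7 was at 0 in any library. Of all tested loci taken singly, 7.39% were lower in traffic noise without overlap. The marker CESA4 overlaps AT5G44020, with 52424 counts against 1702, and IRX3 overlaps AT5G17410, with 1481 against 555. Log2 fold changes were negative for 6 of the 7, with a median of -0.84, and 0 passed edgeR. XCP2, a xylem protease gene, averaged 14.2 ± 3.74 CPM in traffic noise and 26.8 ± 2.67 CPM in control (log2 fold change -0.91 ± 0.35, edgeR adjusted p = 0.589), and IRX1, a cellulose synthase gene whose row overlaps an opposite-strand locus with similar counts, 12.2 ± 1.96 and 21.7 ± 4.32 CPM. The 6 endodermis markers summed to 989 to 1408 CPM in traffic noise and 1056 to 1085 CPM in control, with a median log2 fold change of 0.09, which was -0.03 without traffic noise replicate 2 and 0.20 without traffic noise replicate 1. In whole seedlings fewer cells of a type and less RNA per cell cannot be told apart, and the part of xylem markers in the values of C4H or 4CL2 was not tested.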

How the data were processed

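RNA of 6 libraries was compared, 3 after traffic noise and 3 controls. The authors deposited 1 file of counts per library, whole numbers by gene name without normalization. The submitters' processing notes list Bowtie2, bedtools and TAIR10 without versions or roles. Strand use and the handling of reads with several matches are not stated in any source used. The 218 rows with no gene name held 0.0431% to 0.0886% of counts and were left out, leaving 32921.

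Loci were kept by edgeR's filterByExpr (19112), scaled by TMM and tested by the quasi-likelihood F test with robust fitting, Benjamini-Hochberg adjustment over all tested loci and a threshold of 0.05. The SE was taken as the size of the log2 fold change divided by the root of F, and 95% intervals use the test's degrees of freedom. CPM are TMM-scaled, given as mean ± SD. Profiles used log2 CPM with a prior count of 2. Alternatives were DESeq2, limma-voom, other scaling and filters, a replicate block and leaving out each library. Adjusted p-values that DESeq2 left empty stayed so. Scripts were tested on simulated counts.

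The members and lists were chosen with earlier results of these data known. All members are named, up to 4 genes of each list with the smallest p, and the 5 loci nearest the members' mean profile among those with at least 100 counts on average. Marker genes named with values, and the paralog shares, were chosen after their values were seen. Loci, overlaps, transcript ends and promoter windows come from the RefSeq TAIR10.1 annotation and genome; the count tables hold no coordinates to compare with it. Software was R 4.3.3, edgeR 4.0.16, DESeq2 1.42.0, limma 3.58.1, Python 3.11.15, Biopython 1.88 and matplotlib 3.10.9.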

Additional observations from a re-analysis of the deposited data

How the results depend on the processing

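No member was called in any of the 13 alternatives. Among loci called over the whole table, edgeR gave 0 higher and 2 lower, DESeq2 84 and 130, limma-voom 4 and 8, and edgeR without a filter on low counts 1 and 5. With a minimum mean of 500 counts, where 4CL2 was not tested, 0 were higher and 4 lower, and without organelle loci 0 and 0. With 1 library left out the counts ran from 0 to 18 higher and from 0 to 13 lower, the highest of both without control replicate 2. DESeq2 called 4 pathway list genes higher (KFB20, KMD3, KFB50 and ESB1) and 0 lower. KMD3, KFB50 and ESB1 overlap an opposite-strand locus with near-equal counts, so their reads cannot be assigned with certainty. Every other fit called 0 pathway list genes. No pairing by replicate number was seen, though with 3 libraries per group this check cannot exclude one. Deviations of same-numbered libraries from their group means correlated at -0.009, 0.014 and 0.019, and traffic noise replicate 1 correlated best with control replicate 2. With the replicate block, 0 loci were higher and 0 lower, and the members' median log2 fold change was -0.14. PAL1, PAL2, C4H, 4CL1 and 4CL2 kept their sign in every alternative that tested them. HCT ran from -0.25 to 0.094 with 1 library left out, turning positive without control replicate 3 or traffic noise replicate 1 (0.0077). PAL4 ran from -0.23 to 0.59 and OMT1 from -0.031 to 0.49. The members' median ran from -0.29 to 0.04 and the log2 ratio of summed levels from -0.32 to -0.0050. The Kelch F-box genes stayed positive in 4 of 4, with medians of 0.87 without traffic noise replicate 3 to 1.33 without control replicate 2, and xylem markers were negative in 6 or 7 of 7 wherever tested.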
